A study of Caenorhabditis elegans with 18 samples.

Results

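Input chromatin is the sheared, crosslinked DNA that goes into an immunoprecipitation (IP) and is sequenced without an antibody step. It was followed here in early Caenorhabditis elegans embryos of 3 strains, in all 9 input libraries of a study of 18 libraries. The other 9 libraries were IPs of LEM-2, a protein of the inner nuclear membrane. The members were chosen by name, as every deposited column that its header calls an input. The groups, with 3 inputs each, were the wild type N2 (Bristol), the mutant met-2(n4256) and the mutant set-25(n5021), and both mutations lie on chromosome III per the labels. All embryos were collected before the bean stage at 20 degrees, 60 to 65 h after L1 synchronization depending on the strain. They were fixed with formalin, and the chromatin was sonicated. Per the labels, the libraries of a strain are biological replicates. Each input measures a population of embryos, so a level between whole copies can come from a mixture of genomes or from partial recovery of a region, and these cannot be told apart here. No gene annotation of the files' coordinates was used, so intervals are given by position alone.

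MET-2 and SET-25 are histone methyltransferases that act on the same lysine of histone H3: MET-2 adds the first methyl groups, and SET-25 can add the last. These marks lie mainly on the repeat-rich arms of the autosomes, and they help to hold the arms at the nuclear envelope, where LEM-2 sits. In a ChIP-seq experiment the input is the denominator. It carries differences in DNA copy number, in how readily a region is sheared and recovered, in base composition and in how well short reads map, and it should hold nothing of the protein's binding.

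The deposited value of a window of 500 bp is log2 of its reads after scaling each library to 35.17 M reads, plus 2. N2 inputs a, b and c held 47.28 M, 35.01 M and 38.24 M reads. For met-2 the totals were 59.52 M, 45.37 M and 32.32 M, and for set-25 they were 64.45 M, 46.59 M and 37.63 M. Column a was thus the deepest input of each strain, so column a differs from the others in depth wherever it is set against them below, and the part of depth was not tested in single bins. Column c was the shallowest in met-2 and set-25 but not in N2. The median window held between 151 and 308 reads. No inputs of a strain were near-identical: the chi-square of their reads over 10-kb bins was between 6.73 and 35.8 per degree of freedom, where sampling noise alone gives a value near 1.

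Before any comparison, the libraries were set against their labels. On chromosome III from 8376501 to 8377500, the reads of N2 inputs a, b and c numbered 435, 358 and 425, and those of met-2 inputs numbered 3, 0 and 1. Set-25 input a held 684 reads there, whereas set-25 inputs b and c each held 0. From 13287501 to 13289000 on the same chromosome, all 3 set-25 inputs were empty, with 4, 0 and 0 reads. So the set-25 label covers unlike libraries: column a lacked 1 of these intervals, and columns b and c lacked both. For this reason the contrasts of set-25 and its values at most single places are given for each column. Its means, ratios to N2, counts and tests pool the 3 unlike columns.

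The coverage of autosomal arms against centres did not separate the strains. Each chromosome was divided into a left, a middle and a right part of equal length, and the arm contrast was the mean log2 value of 10-kb bins in the left and right parts of the 5 autosomes, less that of the middle parts. In N2 inputs a, b and c the contrast was -0.190, -0.171 and -0.137. In met-2 it was -0.197, -0.176 and -0.119, and in set-25 it was -0.198, -0.166 and -0.132. All 9 inputs were lower on arms than in centres, and the ranges of the 3 strains covered each other almost wholly. The mean was -0.166 ± 0.027 in N2, -0.164 ± 0.040 in met-2 and -0.165 ± 0.033 in set-25 (SD, n = 3 each), so that arms held about 0.89 times the coverage of centres in each strain. Met-2 differed from N2 by 0.0021 (exact two-sided permutation test, p = 1.0, adjusted p = 1.0 over 4 contrasts), and set-25 differed from N2 by 0.0007 (exact p = 1.0, adjusted p = 1.0). With 3 against 3 libraries this exact permutation test cannot go below p = 0.1. Against the mean of N2, set-25 column a alone gave a difference of -0.0315.

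What the arm contrast did follow was the letter of the column. The 3 inputs of column a averaged -0.195 ± 0.004, those of column b -0.171 ± 0.005 and those of column c -0.129 ± 0.009 (SD, n = 3, 1 input of each strain). The ranges of the letters did not overlap. The headers do not say what a letter stands for. All inputs were also thinned at random to 32.32 M reads, a setting chosen after the data were seen. The contrast in columns a, b and c was then -0.191, -0.171 and -0.137 in N2. It was -0.197, -0.177 and -0.119 in met-2, and -0.198, -0.166 and -0.132 in set-25. Within letters, met-2 minus N2 was -0.0067 in a, -0.0055 in b and 0.0184 in c, and set-25 minus N2 was -0.0074, 0.0041 and 0.0053.

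Coverage of X against the autosomes behaved in the same way. X minus autosomes was 0.064, 0.024 and 0.002 on the log2 scale in N2 inputs a, b and c. It was 0.050, 0.027 and -0.001 in met-2, and 0.052, 0.028 and 0.013 in set-25. In every strain column a was highest and column c lowest. After thinning to equal totals, the values were 0.064, 0.024 and 0.002 in N2, 0.051, 0.027 and -0.001 in met-2, and 0.052, 0.028 and 0.012 in set-25. The strain means were 0.030 ± 0.031 in N2, 0.025 ± 0.026 in met-2 and 0.031 ± 0.020 in set-25 (SD, n = 3). The differences from N2 were -0.0045 in met-2 (exact two-sided permutation test, p = 0.8, adjusted p = 1.0) and 0.0009 in set-25 (exact p = 1.0, adjusted p = 1.0). Within letters, met-2 minus N2 was -0.0133, 0.0034 and -0.0037, and set-25 minus N2 was -0.0122, 0.0044 and 0.0105.

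**Figure D1:**
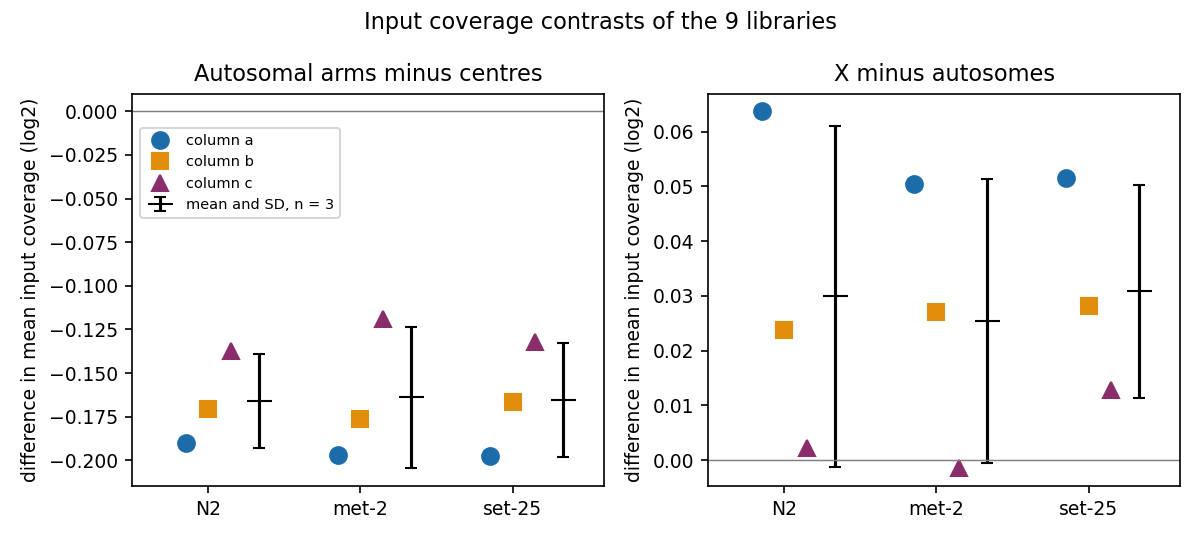
Input coverage of autosomal arms minus centres (left) and of X minus the autosomes (right), as a difference in mean log2 value over 10-kb bins. Each point is 1 input, shaped and coloured by column letter, and bars are the mean and SD of the 3 inputs of a strain. In both panels the order of the letters is the same in all 3 strains, and the strain means lie within the SD of each other.

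The same contrasts were read in the IP libraries, whose comparison with input is the study's readout. The IP arm contrast was 0.785 ± 0.211 in N2, 0.093 ± 0.072 in met-2 and 0.369 ± 0.191 in set-25 (SD, n = 3). In IP columns a, b and c it was 1.029, 0.665 and 0.661 in N2 and 0.011, 0.122 and 0.147 in met-2. In set-25 it was 0.579 in column a, and 0.324 and 0.205 in columns b and c. IP minus input changed between N2 and met-2 by -0.694, beside an input difference of 0.0021 that lay between -0.0204 and 0.0185 when 1 input was left out. Between N2 and set-25, with the unlike columns of set-25 pooled, IP minus input changed by -0.417. The pooled input difference was 0.0007, with a range of -0.0160 to 0.0168 when 1 input was left out. For set-25 input a alone the input difference was -0.0315. For X minus autosomes, IP minus input exceeded that of N2 by 0.109 in met-2 and by 0.169 in set-25 with its columns pooled. In the set-25 IPs a, b and c, X minus autosomes was -0.079, -0.077 and -0.069, against -0.293, -0.213 and -0.226 in N2. The input differences there lay between -0.0184 and 0.0124 in met-2 and between -0.0129 and 0.0178 in set-25 when 1 input was left out.

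At finer scale, too, most of the variation lay between letters. Of the sum of squares of 10-kb bins around each bin's mean over the 9 inputs, 58.7% lay between letters, 16.9% between strains and 24.5% in neither. Inputs of 1 letter from 2 strains differed by a root mean square of 0.084 log2 units per bin (median of 9 pairs), against 0.129 for the 9 pairs of 1 strain and 0.126 for the 18 pairs that shared neither. Without a segment of V that varies between inputs, described further on, the shares were 69.2%, 16.0% and 14.8%. The median distances were then 0.066 for pairs of 1 letter, 0.092 for pairs of 1 strain and 0.112 for pairs that shared neither. Pairs of 1 strain and pairs that shared neither had almost the same range, 0.066 to 0.172 and 0.071 to 0.171. By limma's F test with a Benjamini-Hochberg adjusted p under 0.05, coverage differed among letters in 5305 of 10029 bins (52.9%) and, with letters in the same fit, among strains in 219 bins (2.18%). In 500-bp windows these counts were 50959 of 200502 (25.4%) and 127 (0.0633%).

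Among the 18 chromosome parts, columns a and c did not overlap in 12 (66.7%, against 60.4% of 10-kb bins). Of the 10 outer parts of the autosomes, 9 were lower in a than in c on average, and all 5 middle parts were higher in a. In the middle of III that difference was only 0.0002 log2 units. On the autosomes, columns a and c overlapped in the middle of I and of III, the left part of IV and both outer parts of V. The outer part that was not lower in a was the right part of IV. There, the inputs of column a held a mean log2 value of 7.379, 7.378 and 7.342 in N2, met-2 and set-25, those of column b 7.298, 7.331 and 7.313, and those of column c 7.238, 7.230 and 7.257. The right part of IV holds 584 of all 10029 bins. Some bins spanned at least 0.5 log2 units among the inputs of 1 strain. Of these, 24 of 59 in N2, 45 of 88 in met-2 and 1 of 33 in set-25 lay in this part. Of the same bins, 22 in N2, 2 in met-2 and 21 in set-25 lay in the variable segment of V. The shares of the strains are therefore not directly comparable.

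By strain, fewer of the 18 parts separated. The mean of met-2 was below that of N2 in 14 parts, by up to -0.051 in the left part of I, and that of set-25 in 12. Met-2 minus N2 was larger in size than column a minus c in the middle of III (-0.031 against 0.0002) and its right part (-0.048 against -0.045). The same held in the left part of V (0.034 against -0.031) and its right part (0.027 against -0.018). In the other parts it was smaller. Met-2 inputs lay beyond all N2 inputs in 3 parts (16.7%, both directions counted). By the same rule 3.78% of 10-kb bins were higher and 7.48% were lower. The like share of bins is the sum of both, and whether the parts exceed it was not tested. The middle of I and the middle of III were lower, and the right part of V was higher. In the middle of I, the mean log2 value was 7.513, 7.499 and 7.477 in N2 and 7.477, 7.473 and 7.439 in met-2. In the right part of V it was 7.272, 7.271 and 7.274 in N2 and 7.287, 7.301 and 7.310 in met-2. These shifts were at most a few hundredths of a log2 unit. Set-25 inputs separated from N2 in 0 of 18 parts, beside 2.2% of bins for higher and 2.54% for lower.

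**Figure D2:**
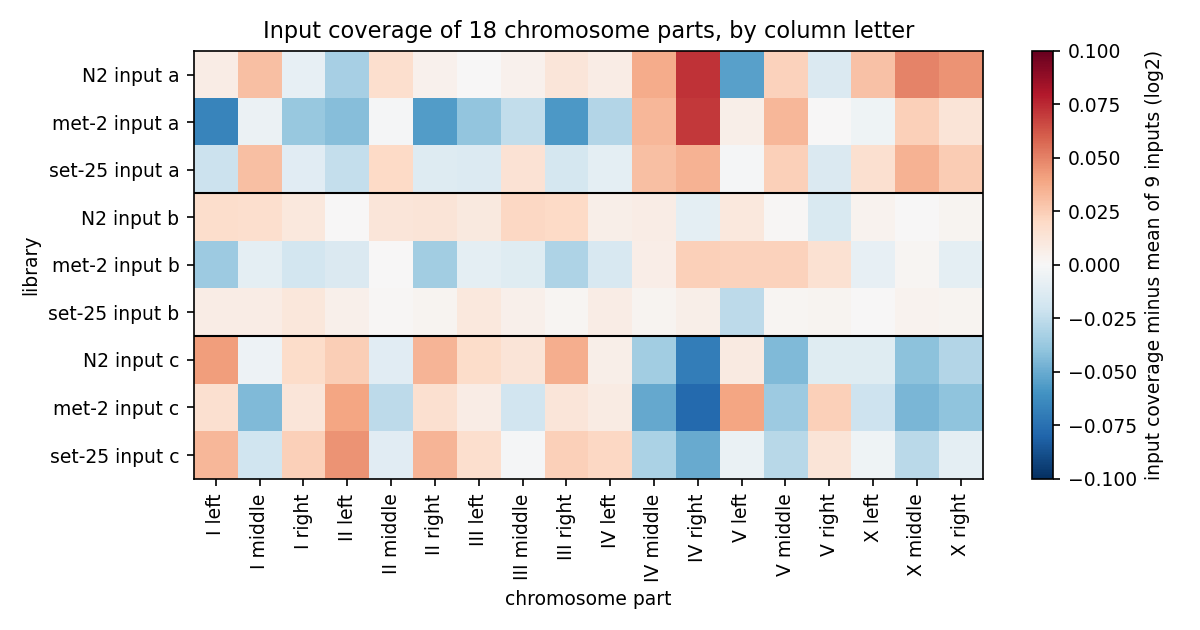
Mean input coverage of the 18 chromosome parts (left, middle and right part of each chromosome) as a log2 difference from the mean of the 9 inputs, with libraries ordered by column letter and black lines between letters. Colours group by letter rather than by strain: the right part of IV is red in the 3 inputs of column a and blue in those of column c, and most other arms show the opposite order.

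Bin by bin, few differences between strains passed a test that had no term for the letter. A fit with the letter called many more bins in met-2, and its counts are given in the last section. With 1 coefficient per strain, limma with trend called 0 of 10029 bins in met-2 against N2 (0% at a Benjamini-Hochberg adjusted p under 0.05), where 706 bins had an unadjusted p under 0.05 and the read-based voom fit also called 0. It called 1 bin in set-25 against N2 (0.00997%), by voom 0. That bin runs from 13280001 to 13290000 on chromosome III and holds the interval that is empty in set-25. Its log2 value was 7.39, 7.43 and 7.43 in N2 inputs a, b and c, 7.28, 7.30 and 7.47 in met-2, and 6.35, 6.37 and 6.36 in set-25. The change from N2 was -1.06 with a standard error of 0.053 (limma, adjusted p = 4.7e-05).

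The inputs of a mutant lay above all 3 N2 inputs in 379 bins for met-2 (3.78%) and 221 for set-25 (2.2%), and below them in 750 (7.48%) and 255 (2.54%). Few of these were large. The bins named next are among the 5 largest of this kind in each direction at least 100 kb apart, a rule added after the data were seen. None of these passed the adjusted threshold in this fit, and bins that hold intervals described further on are left to them. In the fit with the letter, the met-2 bins named here and in the next paragraph had an adjusted p between 0.00046 and 0.0014 (limma). The letters are not known to pair the libraries, and the calls of that fit changed widely when 1 input was left out. On V from 17250001 to 17260000, N2 inputs held 7.19, 7.19 and 7.14 on the log2 scale, set-25 inputs held 7.13, 7.12 and 7.21, and met-2 inputs held 7.42, 7.74 and 7.67, which is 1.35 times N2 (limma, adjusted p = 0.536). Met-2 was higher there in every column. On V from 19960001 to 19970000, the values were 7.37, 7.33 and 7.39 in N2 and 7.58, 7.59 and 7.60 in met-2, which is 1.17 times N2 with the same adjusted p. Set-25 inputs lay with N2 in that bin, at 7.32, 7.31 and 7.42.

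Among bins lower in met-2, the largest difference was the bin of III that holds the missing interval. The next were much smaller. On X from 4960001 to 4970000, N2 inputs held 7.18, 7.20 and 7.30 and met-2 inputs held 6.90, 6.94 and 7.09 (0.841 times, limma, adjusted p = 0.616). On I from 5310001 to 5320000, N2 inputs held 7.53, 7.46 and 7.50 and met-2 inputs held 7.22, 7.30 and 7.31 (0.858 times, limma, adjusted p = 0.536). In the IP libraries that bin of I went the other way for columns a and b: N2 IPs held 5.80, 6.10 and 6.19 and met-2 IPs held 6.95, 6.79 and 6.12. In set-25, apart from the called bin, the largest differences chosen by the same rule lay between 0.905 and 1.12 times N2.

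Differences were larger over short intervals. In 500-bp windows, limma called 3 of 200502 in met-2 against N2 (0.0015%), all higher, and 5 in set-25 against N2 (0.00249%), all lower. The 3 windows in met-2 are neighbours on chromosome II, from 10123001 to 10124500. In multiples of the library's median window, coverage there was 0.947, 0.919 and 0.924 in N2 inputs a, b and c, 2.77, 3.45 and 3.57 in met-2, and 0.865, 0.555 and 0.595 in set-25. Met-2 held 3.504 times the coverage of N2, set-25 did not exceed N2, and the limma changes of the 3 windows were 1.88, 2.03 and 1.41 on the log2 scale (adjusted p between 6.8e-05 and 0.0182). The IP libraries, which the test did not use, held 3.28, 4.03 and 3.82 times their median in met-2 and 0.641, 0.899 and 0.674 in N2. The 5 windows in set-25 are also neighbours, on III from 13287001 to 13289500. Leaving out 1 input changed these counts: met-2 had 12 calls without met-2 input c and 6 without set-25 input a, and set-25 had 15 without N2 input a, 3 without N2 input b and 9 without set-25 input a.

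A plainer rule, added after the data were seen, asked for all 3 inputs of a mutant to lie beyond all 3 of N2 by 1.2 times. Of 200502 windows, met-2 had 27 higher (0.0135%) and 116 lower (0.0579%), and set-25 had 9 higher (0.00449%) and 30 lower (0.015%). Only 3 runs of at least 3 such windows existed: the raised stretch of II in met-2, the stretch of III from 8376001 to 8378000 that is low in met-2 at 0.237 times N2, and the stretch of III that is low in set-25 at 0.156 times N2. The flanking windows of these runs are partly covered, which is why the ratios are not 0.

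Most other local differences did not follow strain. Of 42 intervals in which the 9 inputs fell into a high and a low set with a gap of at least 1.5 times, 37 lay in 1 segment of V and 5 elsewhere, and 1 of those 5 was the stretch of III that is low in all set-25 inputs. The segment of V, from 2348501 to 2561000 (212.5 kb), held 0.41, 1.74 and 1.81 times the median window in N2 inputs a, b and c, 1.48, 1.71 and 1.85 in met-2, and 1.60, 0.75 and 0.80 in set-25. N2 input a and set-25 inputs b and c were therefore the low libraries there.

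N2 input a and set-25 inputs b and c also stood apart from the rest at smaller intervals. On V from 1646001 to 1647500, N2 input a held 0 reads and set-25 inputs b and c held 1 and 2, while the other 6 inputs were between 0.733 and 1.15 times their median window. On V from 19428501 to 19430500, coverage was 1.72 times the median in N2 input a and 1.87 and 1.98 in set-25 inputs b and c, against 0.897 to 1.01 in the other 6. These libraries were thus low at the first place and high at the second. On IV from 12328001 to 12332000, N2 input a was high at 1.95 times the median together with all 3 set-25 inputs, at 1.88, 1.98 and 1.93, and the other 5 inputs were between 0.938 and 1.04. On V from 5079501 to 5083000 the pattern differed again: set-25 input a was lowest at 0.157, N2 inputs b and c stood at 0.517 and 0.528, set-25 inputs b and c at 0.742 and 0.812, and N2 input a and the met-2 inputs between 1.06 and 1.13.

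The IP columns were read at the same intervals, and 3 of the 4 patterns recurred. On V from 1646001 to 1647500, N2 IP a held 4 reads and set-25 IPs b and c each held 0, against 155 to 862 in the other 6 IPs. On V from 5079501 to 5083000, set-25 IP a was again lowest, at 0.245 times its median window, and N2 IPs b and c were at 0.649 and 0.771. On IV from 12328001 to 12332000, N2 IP a at 1.22 and set-25 IPs at 1.31, 1.57 and 1.67 were above the other 5 IPs, which held 0.629 to 1.08. On V from 19428501 to 19430500 the IPs did not repeat the pattern: N2 IP a stood at 5.63 times its median window, above 2.09 and 2.33 in N2 IPs b and c, but set-25 IPs a, b and c were alike at 2.51, 2.79 and 2.77.

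**Figure D3:**
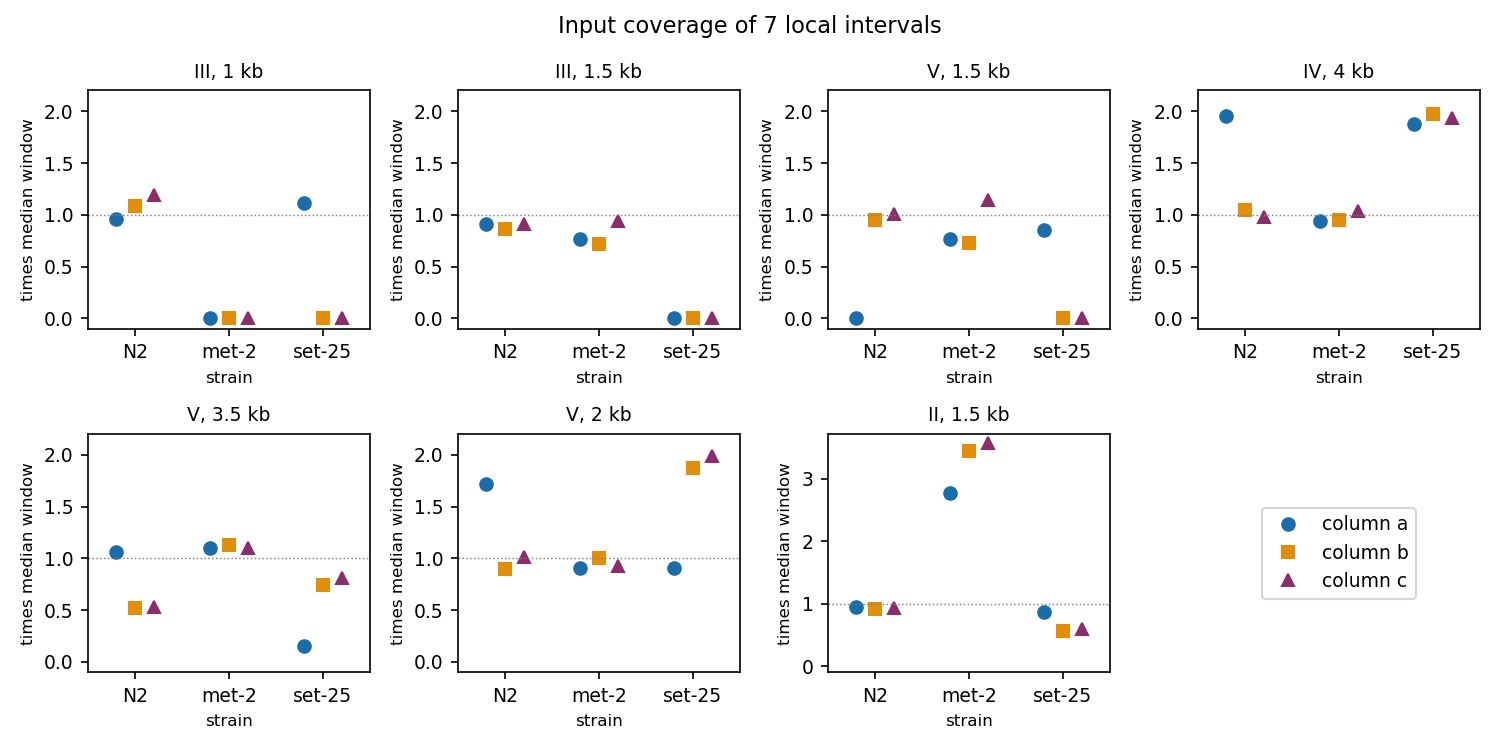
Coverage of 7 local intervals in the 9 inputs, in multiples of the median window of each library (dotted line at 1). Panels are titled by chromosome and length, points are single inputs shaped by column letter, and the panel for II has a longer axis. The first panel on III is at 0 in met-2 and in set-25 inputs b and c, the second on III is at 0 in all set-25 inputs, and the panel for II is raised in met-2, at 2.77 to 3.57.

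The outermost windows of the chromosomes were lower in both mutants. The first and last windows of the 6 chromosomes hold the telomere-proximal sequence of the assembly, and reads of telomeric repeats can pile up there. They were picked for display after the data were seen. Last windows are shorter than 500 bp, so levels are compared only between strains within a window. The mean log2 value of these 12 windows was 9.55, 9.46 and 9.81 in N2 inputs a, b and c, 8.62, 8.69 and 9.29 in met-2, and 9.04, 8.96 and 9.18 in set-25. All 6 mutant inputs lay below all 3 N2 inputs, with column c highest in each strain. Met-2 was at 0.597 times N2 (difference -0.74 log2, exact two-sided permutation p = 0.1, the smallest that 3 against 3 can give), and set-25 was at 0.685 times (difference -0.55, exact p = 0.1). Within letters a, b and c the differences were -0.93, -0.78 and -0.52 in met-2 and -0.51, -0.50 and -0.62 in set-25.

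Taken singly, met-2 inputs lay below all N2 inputs in 10 of the 12 end windows, and so did set-25 inputs in 10, whereas 3.66% and 3.15% of all windows did so. Within every letter, met-2 was lower in 12 (15.6% of all windows) and set-25 in 11 (13%). Limma with strains alone called 0 of the 12 in either mutant. At the right end of II, N2 inputs held 9.36, 9.26 and 9.62 on the log2 scale, met-2 inputs held 8.06, 8.33 and 8.90, and set-25 inputs held 8.76, 8.68 and 8.89. At the right end of I, which borders the ribosomal DNA, met-2 was lower by a narrow margin in column c and set-25 overlapped with N2: the values were 10.57, 10.52 and 10.60 in N2, 9.73, 9.87 and 10.48 in met-2, and 10.27, 10.39 and 10.64 in set-25. The differences were smaller further inward. In the 12 windows next to the ends, met-2 was lower than N2 by a log2 difference of -0.16 (exact p = 0.1) and set-25 by -0.06 (exact p = 0.2). In the IP libraries the mean of the end windows overlapped between strains.

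**Figure D4:**
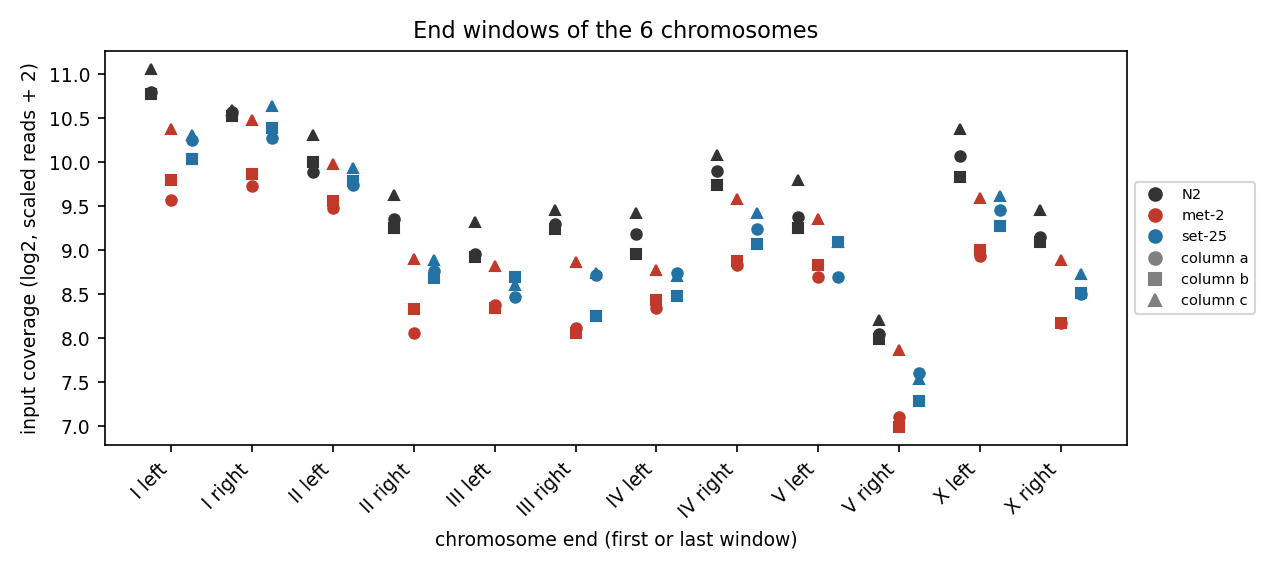
Log2 input coverage of the first (left) and last (right) window of each chromosome in the 9 inputs, coloured by strain and shaped by column letter. N2 inputs are mostly the highest, met-2 and set-25 inputs mostly lie below them, and the triangle of column c is usually the highest of its strain.

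Coverage at the right end of I was taken from 15060001 to 15070000, where the assembly holds copies of the ribosomal DNA repeat. It was 52.0, 61.6 and 69.1 times the library's median window in N2 inputs a, b and c. It was 52.5, 54.9 and 78.1 times in met-2 and 63.6, 69.6 and 82.7 times in set-25. The ranges of the strains overlapped, and within each strain the value was lowest in column a and highest in column c. Within every letter, however, set-25 was the highest strain, whereas met-2 was above N2 in a and c and below it in b. These differences were not tested. This bin took between 0.499% and 0.778% of the reads of an input.

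The evenness of coverage was alike across the strains. The SD of the log2 value over 10-kb bins was between 0.228 and 0.251 in the 9 inputs, highest in met-2 input a. In the fifth of bins with the lowest mean coverage, of which 88.6% were autosomal arm bins, met-2 was lower than N2 by a log2 difference of -0.053 in column a and -0.035 in column b, and differed by 0.004 in column c. In set-25 the differences were -0.030, -0.001 and 0.018. The sign of both changed with the letter.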

How the data were processed

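Per the labels, early embryos of N2, met-2 and set-25 gave 3 input and 3 LEM-2 IP libraries each. The authors' deposited table holds log2 values for 200538 windows of 500 bp, per the file's values log2 of scaled reads plus 2, with every library at 35.17 M reads. Whole reads were recovered for 100.0% of values, within 0.01 of a whole number. The scaling makes all values relative. How reads were aligned, deduplicated and filtered is not given in the sources used here, which matters for repeats. Coordinates are those of the deposited table, whose chromosome lengths are not those of ce10, the build in the submitters' processing notes.

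Columns carry a letter, not a replicate number, and each was used as a replicate of its strain. Bins of 10 kb, 10029 in all, took the mean of their windows. Features with fewer than 10 reads on average over the inputs were dropped (0 bins, 36 windows). Tests used limma (version 3.58.1, R 4.3.3) with trend on all 9 inputs, 1 coefficient per strain and 6 residual degrees of freedom, at a Benjamini-Hochberg adjusted p of 0.05. The limma fits were tested on simulated 10-kb bins, not on windows. Recovery of added changes was required only of the fit with column letter, so the test does not show what the fit of strains alone can detect. The 4 contrasts were compared by exact two-sided permutation tests. The rest was done in Python 3.11.15, with scipy 1.17.1, numpy 2.4.6 and pandas 2.3.3, and plotted with matplotlib 3.10.9. Limma's p-values set a difference between groups against the spread between these libraries, and the permutation p-values come from relabelling the libraries.

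Missing intervals were runs of at least 2 windows in which each input held at most 5% or at least 50% of its median window. Gap intervals were runs of at least 4 windows with a gap of at least 1.5 times. Named bins and windows were to be the 5 largest calls in each direction at least 100 kb apart and the longest runs of called windows. The inputs, intervals and rules were chosen with earlier results of these data known. Alternatives were another scaling, voom on recovered reads, no minimum, a pseudocount of 8, medians, outer parts of 25%, other sets of libraries, each input left out, and column letter as a replicate block.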

Additional observations from a re-analysis of the deposited data

How the results depend on the processing

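The arm and X differences between strains were near 0, and their sign was not stable. For the arm contrast they went from -0.0204 to 0.0185 in met-2 and from -0.0160 to 0.0168 in set-25 when 1 input was left out. For X minus autosomes they went from -0.0184 to 0.0124 in met-2 and from -0.0129 to 0.0178 in set-25. The sign also turned for the arm contrast of met-2 without the variable segment of V (-0.000343), for that of set-25 with set-25 input a alone (-0.0315), and for X minus autosomes of set-25 with medians over bins (-0.0012). None of these passed a test, and the cause was not tested.

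Counts of called bins and windows were small. Leaving out 1 input gave 0 to 1 bins in met-2, 1 to 2 bins in set-25, 2 to 12 windows in met-2 and 3 to 15 windows in set-25. In met-2, 1 bin and 6 windows were called with the 6 inputs compared only, without set-25 inputs b and c, and without N2 input a and set-25 inputs b and c. In set-25, voom called 0 bins, leaving out N2 input a and set-25 inputs b and c gave 2 bins and 11 windows, and leaving out set-25 inputs b and c gave 8 windows. The last alternatives, and thinning the reads, were chosen after the data were seen.

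With column letter as a replicate block, 743 bins were called in met-2 (178 higher and 565 lower) and 1 in set-25, and 107 and 28 windows. All 12 end windows were then called in met-2 and 10 in set-25. The letters are not known to pair the libraries, as the headers do not say what a letter stands for. Deviations from the strain means correlated at 0.75 to 0.84 in letter a and 0.81 to 0.86 in c. In b they correlated at -0.003 to 0.29. The deviations of a strain sum to 0 over its columns, and b lay between a and c in the arm contrast. A low value in b thus cannot decide whether the letters pair the libraries. An input matched its own letter best in 13 of 18 comparisons, each among 3 letters. Within this fit, leaving out 1 input gave 14 to 1157 bins and 29 to 562 windows in met-2, and voom gave 1077 bins and 281 windows.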
